A study of Mus musculus with 15 samples.

Results

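Chromosome 8 was read by 2153 distinct probes of a mouse array comparative genomic hybridisation design, out of 42404 distinct probes on the array and 40726 on the 19 autosomes. The members were all non-control probes whose mapped position in the scanner files starts with chr8, so no single probe was picked by its value. In this assay 2 differently dyed DNAs, that of the tissue and that of a reference mouse, are hybridised together, and the log2 ratio of tissue over reference at a probe follows the number of DNA copies averaged over all cells of the piece of tissue. A level near 0 means as many copies per genome as the array's middle autosomal probe, not a count of 2. The probes ran from 3151837 to 131699795 in the coordinates of the files, whose genome build is not given in the sources used here, and lay a median of 18.7 kb apart. The widest gap, 3.36 Mb, lay between 19496608 and 22856911 next to the defensin genes. Of the probes, 244 lay before 19 Mb, called the proximal part here, and 1909 beyond it. The cut at 19 Mb was set with earlier results of these data known.

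Hybridised on 15 arrays were 5 hepatocellular carcinomas (HCC) and 3 unaffected livers of 3 mice. The strain label of all 3 mice is C57BL/6.129-Mad2flox,p53flox,AlbuminCre, so the livers named unaffected carry the same floxed alleles and the same Albumin-Cre as the tumours. The study used Albumin-Cre to recombine the floxed genes in developing hepatocytes. Other cells of the same tissue, such as infiltrating immune cells, can keep the floxed genes. Mouse 3151 was female, 16.4 months old and Mad2(f/f) p53(f/+), and gave HCC 1, HCC 2 and unaffected liver 1. Mouse 3760 was male, 13.8 months old and Mad2(f/f) p53(f/f), and gave HCC 3 and unaffected liver 2. Mouse 4033 was male, 13.9 months old and Mad2(f/f) p53(f/f), and gave HCC 4, HCC 5 and unaffected liver 3. The reference was normal liver DNA of a C57BL/6.129 mouse of the opposite sex, which the study methods call wild type, so the sex of the reference, the p53 genotype and mouse 3151 cannot be told apart. Tumours of 1 mouse share that animal, and further tissues counted in the series text were not analysed here. A tumour with fewer altered cells and a tumour with a smaller change per cell cannot be told apart in bulk DNA.

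Chromosomes are lost or gained whole when a cell divides with sister chromatids wrongly attached to the spindle. The spindle assembly checkpoint delays division until every chromosome is attached, and Mad2l1 (Mad2 in the labels) is one of its core parts. A step in copy number inside a chromosome arm has another form: it needs a break in the DNA, after which one side of the break is kept and the other is lost or gained. Mouse chromosome 8 has its centromere at the start of the coordinates, so a loss from a break point to the far end is a terminal loss. The chromosome carries a number of gene families used by the liver, among them the carboxylesterases, which split ester drugs and lipids, and the metallothioneins, which bind zinc and other metals.

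Probes of the design are 45 to 60 bases long, and 1674 of the 2153 on chromosome 8 have the full length. The sequences of 10 of them are given 5′ to 3′ as the scanner files print them, in lower case, with no letter marked and with the strand not stated. The first 2 bound the one large step in copy number found on the chromosome. The other 8 are those whose values separated the mice most, and were chosen after their values were seen. Where the files give a gene name it stands before the position, and the 2 without one are called unnamed.

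The probes on either side of the step of HCC 3 are these.
Cherp, chr8:74995562-74995621: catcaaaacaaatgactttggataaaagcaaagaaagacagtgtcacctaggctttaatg
Slc35e1, chr8:75005976-75006032: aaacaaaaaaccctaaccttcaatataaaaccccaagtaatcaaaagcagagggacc

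The probes that separated the mice most are these, from the widest gap to the narrowest.
Nip7, chr8:109581591-109581650: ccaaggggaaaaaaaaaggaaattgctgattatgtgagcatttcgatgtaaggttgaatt
Unnamed probe, chr8:19376328-19376387: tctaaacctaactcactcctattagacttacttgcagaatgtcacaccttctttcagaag
Mfhas1, chr8:36702395-36702454: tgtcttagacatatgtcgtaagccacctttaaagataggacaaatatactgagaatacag
Unnamed probe, chr8:116900891-116900949: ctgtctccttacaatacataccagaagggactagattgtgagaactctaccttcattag
Triml1, chr8:44221009-44221068: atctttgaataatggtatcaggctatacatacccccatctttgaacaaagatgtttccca
B3gnt3, chr8:74223580-74223639: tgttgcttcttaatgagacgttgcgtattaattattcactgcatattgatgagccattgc
Rnf150, chr8:85488912-85488971: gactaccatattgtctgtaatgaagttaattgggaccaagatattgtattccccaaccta
Scoc, chr8:85973955-85974014: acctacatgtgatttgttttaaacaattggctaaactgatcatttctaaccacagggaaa

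The median signal of chromosome 8 probes was 3.79 to 10.14 times the background over the arrays and dyes, the share of spots not well above background was 0.0911% to 1.96% by array, and no spot was saturated. The X chromosome, which the design makes uneven, had a level of 0.88 in unaffected liver 1 and -0.87 and -0.92 in livers 2 and 3, which has the sign of the labelled sexes. The array has 1 probe each for Mad2l1 and Trp53. The log2 ratio of the Mad2l1 probe was -1.22, -0.71, 0.08, 0.53 and 0.59 in HCC 1 to HCC 5 and 0.01, 0.36 and 0.69 in livers 1 to 3. The Trp53 probe gave -1.06, -1.14, -0.19, -2.07 and -2.03 in the HCC and -0.07, -0.88 and -0.72 in the livers. Whether either probe lies inside the deleted exons was not settled here, so they do not check the labels. HCC 3 had 1 array, with no dye swap, and lacked 2 of the chromosome 8 probes after outlier spots were left out.

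The level of chromosome 8 varied between tumours. HCC 5 had a mean log2 ratio of 0.381, HCC 1 of 0.187 and HCC 4 of 0.145, while HCC 2 had -0.0933 and HCC 3 had -0.141. Unaffected livers 1, 2 and 3 had levels of -0.0062, -0.0188 and -0.0088. So 3 tumours lay above all livers and the other 2 below all livers. With the arrays centred on their most frequent value instead of the autosomal median, HCC 1 to HCC 5 read 0.0769, -0.0166, -0.111, 0.132 and 0.128 and livers 1 to 3 -0.0013, -0.0238 and 0.0041. HCC 2 then lay among the livers and HCC 4 above HCC 5. As a ratio, HCC 5 held 1.30 times the reference and HCC 3 held 0.907 times. The forward and the dye-swap array of a tissue differed by 0.0003 to 0.0562 over the 7 tissues that had both. By that measure the order HCC 5, HCC 1, HCC 4, livers, HCC 2, HCC 3 had 4 neighbouring pairs closer than 0.0562: HCC 1 and HCC 4 (0.0422), livers 1 and 3 (0.0026), livers 3 and 2 (0.01), and HCC 2 and HCC 3 (0.0471). With centring on the autosomal median, sister tumours of 1 mouse did not share a level, with 0.187 and -0.0933 in mouse 3151 and 0.145 and 0.381 in mouse 4033. Centred on the most frequent value, those of mouse 3151 read 0.0769 and -0.0166 and those of mouse 4033 0.132 and 0.128.

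**Figure D1:**
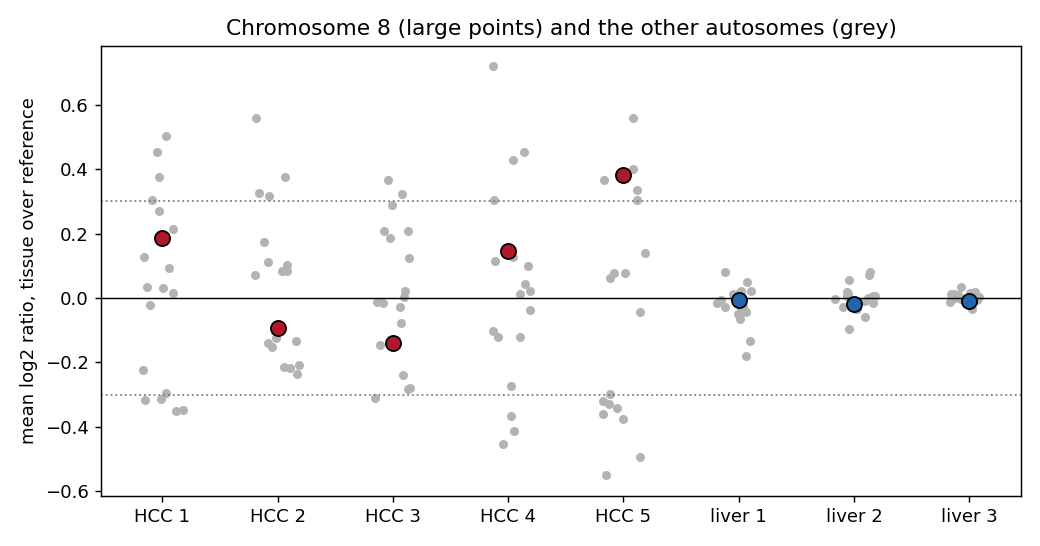
The mean log2 ratio of tissue over reference (vertical axis) for each autosome in each tissue, with chromosome 8 as a large point (red in HCC, blue in unaffected liver), the other autosomes in grey and dotted lines at 0.3 and -0.3. Chromosome 8 lies at 0.381 in HCC 5 and between -0.141 and 0.187 in the other tumours, while the livers hold it between -0.0188 and -0.0062.

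Whether chromosome 8 was gained or lost in the tumours as a group was asked by comparing 5 HCC with 3 livers. The HCC averaged 0.0957 ± 0.214 (SD, n = 5). The livers averaged -0.0113 ± 0.0066 (SD, n = 3). The difference was 0.11 on the log2 scale with a standard error of 0.12, and limma over the 19 autosomes gave an adjusted p of 0.645. It was higher than every liver in 3 of 5 tumours. The exact permutation test of the same difference, two-sided over 56 splits, gave p = 0.411, where 0.0179 is the smallest p these splits allow. The splits moved tissues freely between mice and so left out the pairing by animal. For comparison, 1 of the 19 autosomes, 5.26%, was called in that fit, and it was not chromosome 8. With mouse as a replicate block the difference was 0.0849, and leaving out HCC 5 brought it to 0.0358. Within the scan days the difference was 0.134 for the 2 HCC and 2 livers of day 1 and 0.0857 for the 3 HCC and 1 liver of day 2. Chromosome 8 had no direction shared by all tumours.

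A whole-chromosome event, that is a mean of 0.3 or more above or below 0, was met on chromosome 8 by 1 of 5 tumours, HCC 5, and by none of the 3 livers. In HCC 5 it ranked 3 from the top of the 19 autosomes. With centring on the most frequent value no tumour met the threshold. In HCC 1 it ranked 7 from the top and in HCC 4 it ranked 5. HCC 5 had 98.2% of its chromosome 8 probes above 0, HCC 1 had 84.9% and HCC 4 had 81.4%. HCC 2 had 28.7% and HCC 3 had 30.4%. The livers had 47.8% to 49.9% above 0. Against the liver of its own mouse, each HCC moved by 0.193 (HCC 1), -0.0871 (HCC 2), -0.122 (HCC 3), 0.154 (HCC 4) and 0.390 (HCC 5).

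The low level of HCC 3 came from one side of the chromosome. Probes up to 74995621 averaged -0.0028 in HCC 3 and probes from 75005976 to the end averaged -0.269, a step of -0.266. The last probe before the step lay in Cherp, which codes for a calcium homeostasis protein of the endoplasmic reticulum, and the first after it in Slc35e1, a member of a family of solute carriers. Their sequences are given above. There were 1038 probes before the step, with an SD of 0.257, and 1113 after it, with an SD of 0.251. The spread of single probes was therefore about as large as the step, and the step shows in shares rather than in each probe. Of the probes after it, 73.4% lay below -0.136, midway between both means, against 25.05% before it. In unaffected liver 2 of the same mouse, 12.8% and 10.3% of the same probes lay below that value, and both sides had means of -0.0149 and -0.0225. As a ratio, the part after the step held 83.0% of the reference and the part before it 99.8%. Among the 20 probes on each side nearest the step, the median of HCC 3 went from 0.04 to -0.35, and 6 of 20 before and 17 of 20 after lay below the midpoint. Subtracting liver 2 probe by probe left the step at the same position, from 0.0121 before to -0.246 after.

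**Figure D2:**
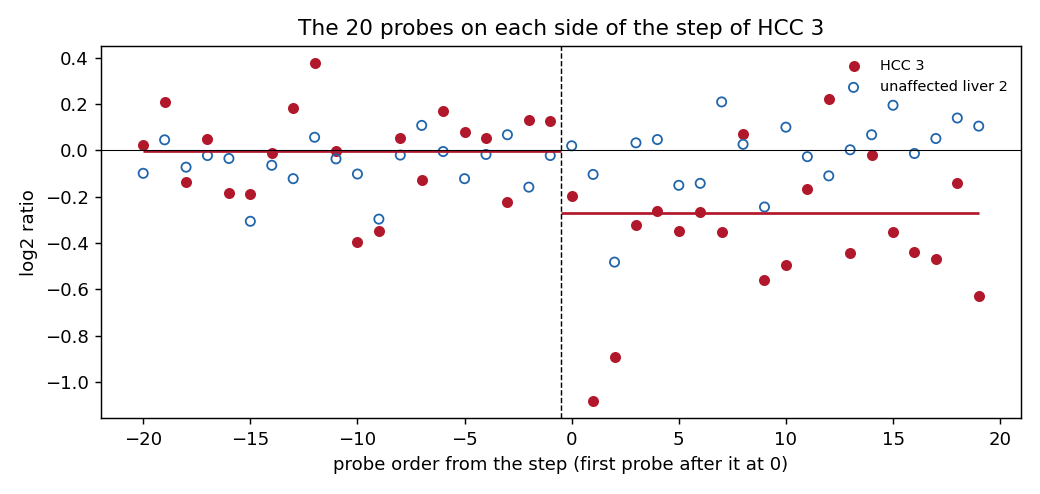
The log2 ratio of the 20 probes on each side of the step in HCC 3 (red) and in unaffected liver 2 of the same mouse (blue circles), in probe order, with red lines at the mean of all HCC 3 probes on that side. The red points have a median of 0.04 before the step and of -0.35 after it. The red lines lie at -0.0028 and -0.269, and the blue circles stay around 0.

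No other tissue had a step there. The mean beyond 75 Mb minus the mean before it was -0.0325, -0.0138, -0.0144 and -0.0175 for HCC 1, 2, 4 and 5, and -0.0138, -0.0076 and 0.0084 for livers 1 to 3. For HCC 3 it was -0.266. In windows of 5 Mb, HCC 3 ranged from -0.103 to 0.034 over the 15 windows before 75 Mb and from -0.307 to -0.212 over the 11 after it, with no overlap. In HCC 5 those ranges were 0.343 to 0.506 and 0.352 to 0.405, so the second lies inside the first. The position of the boundary was taken from HCC 3 itself, so these values describe the step and are no test of it.

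**Figure D3:**
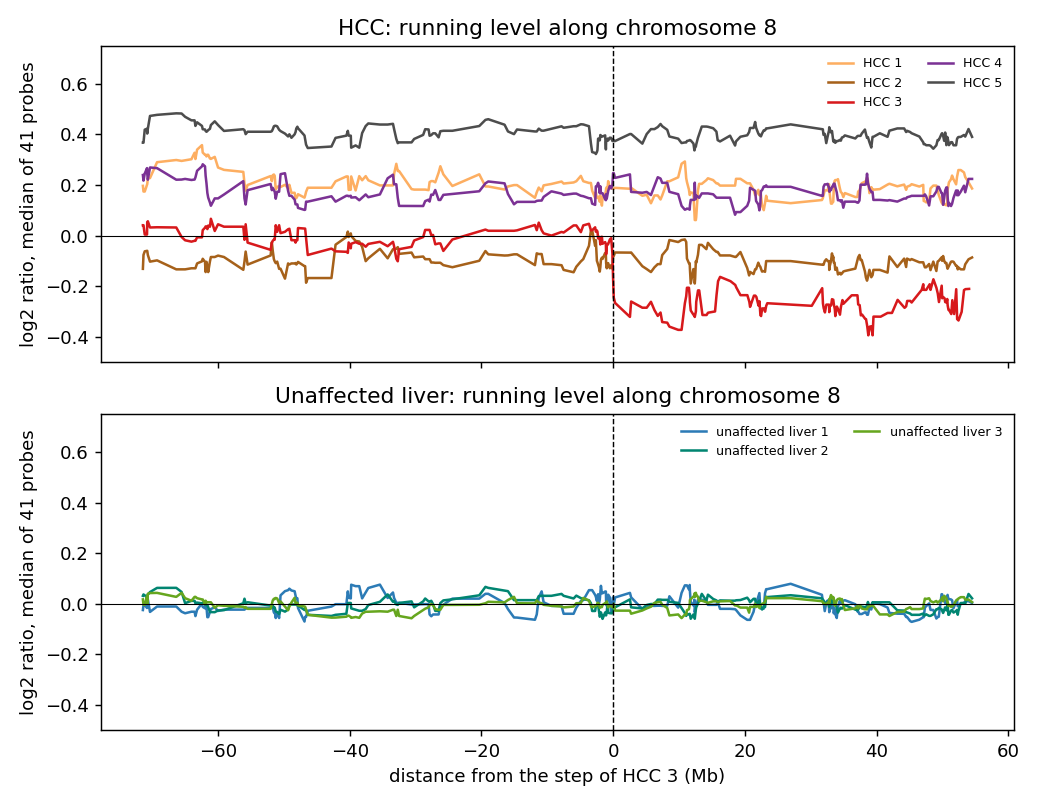
The running median of 41 probes (vertical axis, log2 ratio of tissue over reference) against the distance in Mb from the step of HCC 3, with the HCC above and the unaffected livers below. HCC 3 drops from about its mean of -0.0028 to about -0.269 at distance 0 and stays down to the end, while HCC 5 stays near 0.381 along the whole chromosome and the livers stay near 0.

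To place this step, every autosome in every tissue was split once, with at least 100 probes on each side. The split was put where the change of mean, weighted by the probe numbers of both sides, was largest. The change of mean at that split was the value taken. Each side was averaged whole, so a second break on a chromosome is not described. Of 95 such values in HCC, 8 were 0.2 or more, with a median of 0.0425. Of 57 in liver none reached 0.2, and the largest was 0.0941. The step of HCC 3 on chromosome 8 ranked 6 of all, after HCC 2 on chromosomes 1, 5 and 15 (-0.537, 0.514 and 0.416), HCC 5 on chromosome 13 (0.373) and HCC 1 on chromosome 1 (-0.343). Within HCC 3 it ranked first, followed by chromosome 11 (0.235). The step was -0.260 with normexp background correction, which placed it at the next probe, 75013172, and -0.272 without dim probes. HCC 3 lacks the second dye orientation, so a dye effect could not be averaged out there. Its liver on the same slide had that second array, and its forward array alone gave 0.0099 for the same difference.

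The genes beyond the step were lower in HCC 3 in each list that had members on that side. Of the 1080 gene names on chromosome 8, 558 start beyond 75 Mb, and 519 of them were below 0 in HCC 3 with a median of -0.26, against 259 of 522 before it with a median of 0.00. All 8 carboxylesterase genes and all 4 metallothionein genes, which lie beyond the step, were below 0 in HCC 3, with medians of -0.21 and -0.17. HCC 2, which has no step, had medians of -0.19 and -0.18 for these families, so low values there were not particular to HCC 3. In HCC 1 the metallothionein median was -0.07, while its chromosome level was 0.187. The carboxylesterases ranged from -0.79 (Es22, 2 probes) to -0.03 (Es1, 1 probe), and the metallothioneins from -0.40 (Mt1) to -0.03 (Mt4). Of the liver and plasma protein genes, 15 of 16 beyond the step and 12 of 21 before it were below 0. For genes with a known part in cancer these counts were 10 of 11 and 12 of 26, and for cell division and replication genes 12 of 12 and 3 of 8. Genes on 1 chromosome that share a copy number are not independent of each other, so these counts describe a single step.

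A few genes beyond it are named here after their values were seen. Cdh1, which codes for the adhesion protein E-cadherin, read -0.47 in HCC 3 and 0.06 in liver 2. Wwox, a gene at a fragile site, read -0.45 against -0.02, and Cdt1, which licenses replication origins, read -0.50 against -0.04. Hmox1, which codes for the haem-degrading enzyme haem oxygenase, read -0.55 against -0.06. The listed genes beyond the step that were not below 0 in HCC 3 were Irf8, an interferon regulatory factor, at 0.17 from 2 probes, and Mvd, an enzyme of cholesterol synthesis, at 0.01 from 1 probe. In HCC 5 all 6 of these genes were above 0, from 0.29 (Mvd) to 0.46 (Wwox), so the same genes stood on opposite sides of the reference in HCC 5 and, for the first 4, in HCC 3. Those 4 lay below the HCC 3 mean of -0.269 beyond the step, Cdt1 and Hmox1 from 1 probe each, Cdh1 and Wwox from 2. The 11 genes with a known part in cancer beyond the step had a median of -0.27 in HCC 3. Among them Ctcf and Zfhx3 read -0.10.

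The proximal part stood slightly above the rest of the chromosome in 4 of 5 tumours and in 2 of 3 livers. HCC 1 had a proximal mean of 0.266 (rest 0.177), HCC 4 one of 0.205 (rest 0.137) and HCC 5 one of 0.425 (rest 0.375). HCC 3 had 0.0195 (rest -0.161), and HCC 2 had -0.0976 (rest -0.0928). In livers 1 to 3 it was -0.0306, 0.0094 and 0.0192 (rest -0.0031, -0.0224 and -0.0124). The proximal-minus-rest difference was thus 0.0891, -0.0048, 0.181, 0.0675 and 0.0494 in the HCC and -0.0274, 0.0318 and 0.0316 in the livers. Against the stretch from 19 to 75 Mb alone, the proximal part of HCC 3 was 0.0292 higher, which is less than the 0.0317 and 0.0423 of livers 2 and 3. By the same measure HCC 1 had 0.0813, HCC 4 0.0684, HCC 5 0.0454 and HCC 2 -0.0149. On both dye orientations the proximal part was higher in HCC 1 (0.0814 and 0.0969), HCC 4 (0.0644 and 0.0717) and HCC 5 (0.0441 and 0.0547). It was also higher on both in liver 2 (0.0266 and 0.037) and liver 3 (0.0256 and 0.0377), by less than in these tumours.

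**Figure D4:**
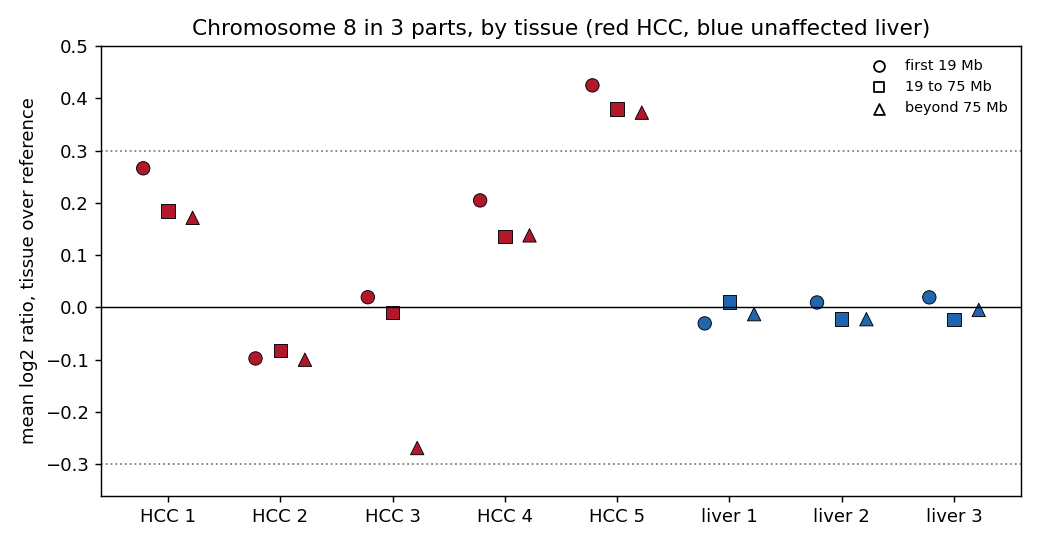
The mean log2 ratio of tissue over reference for the first 19 Mb (circles), 19 to 75 Mb (squares) and the part beyond 75 Mb (triangles) of chromosome 8, by tissue, with HCC in red and unaffected liver in blue. The triangle of HCC 3 lies at -0.269 apart from its circle and square near 0, and the circles of HCC 1, HCC 4 and HCC 5 lie 0.0454 to 0.0813 above their squares, beside 0.0317 and 0.0423 in livers 2 and 3.

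The group difference of this measure was 0.0643. The HCC averaged 0.0763 ± 0.0678 (SD, n = 5), and livers averaged 0.012 ± 0.0341 (SD, n = 3). It is given with no test, and it fell to 0.0383 without HCC 3. Within the scan days it was 0.0832 (2 HCC, 2 livers) and 0.0781 (3 HCC, 1 liver). The proximal probes had a mean GC content of 35.8% against 36.3% in the rest. Segments were called in each tissue by optimal partitioning with at least 5 probes. In HCC 1, 232 probes up to 18525790 averaged 0.273 and the 1921 from 18590155 averaged 0.177. HCC 4 had a boundary at 13386241, with 0.229 before and 0.137 after, and HCC 5 one at 28153405, with 0.418 before it and 0.374 from there to 109572965. Liver 3, of the mouse of HCC 4 and HCC 5, also had a proximal boundary, at 28382773, with 0.0111 before it and -0.0635 after. Liver 2 had one at 19310139, with 0.013 before it. It was followed by 5 probes with a mean of -0.70, or -0.02 without the probe at 19376328. The next segment of liver 2 averaged -0.0157. Against its own liver, HCC 1 kept the boundary, at 18884414, with 0.302 before and 0.180 after. HCC 4 had none against its own liver. HCC 5 had only one in that contrast, at 71428899, with 0.411 before and 0.376 after.

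Across the chromosome, no stretch separated the groups. Of 484 windows of 5 Mb tested over the 19 autosomes, limma called 4, or 0.826%, and none of the 26 on chromosome 8 was among them, at an unadjusted p under 0.05 either. The window from 100 to 105 Mb held 4 probes and was left out, since 10 were required. The differences of the 26 windows ran from 0.06 to 0.18, all above 0, beside a median of 0.03 over all windows. The 3 windows with the smallest p were 10 to 15 Mb (difference 0.18, SE 0.13, limma adjusted p 0.534), 5 to 10 Mb (0.17, SE 0.13, adjusted p 0.550) and 30 to 35 Mb (0.16, SE 0.13, adjusted p 0.550). In the first of these the HCC read 0.304, -0.116, 0.0212, 0.199 and 0.423 and the livers -0.0425, -0.0067 and 0.012. HCC 2 lay below the livers there, and the other 4 tumours above them.

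By gene, limma called 0 of 19973 autosomal names, 0.0%, and so 0 of 1080 on chromosome 8, of which 13 had an unadjusted p under 0.05. By probe it called 0 of 40726, 0.0%, and so 0 of 2153, of which 30 had an unadjusted p under 0.05. The share with an unadjusted p under 0.05 was 1.39% of the chromosome 8 probes and 7.40% of all probes tested. The median difference was 0.11 over the chromosome 8 genes and -0.01 over all autosomal genes. The 5 probes with the smallest p were those of BC125419 (difference 0.73, limma adjusted p 0.309), AK136672 (0.56, adjusted p 0.309), Tnks, which codes for the telomere protein tankyrase (0.53, adjusted p 0.431), Fanca, a Fanconi anaemia DNA repair gene (0.47, adjusted p 0.458), and Atp11a, a lipid flippase (0.42, adjusted p 0.459). For BC125419 the HCC read 0.42, 0.87, 0.14, 0.40 and 0.70 and the livers -0.34, -0.13 and -0.20. This probe was picked for the smallest p of the 2153 on chromosome 8, so the distance between its groups is no result about the gene. How many probes kept the groups apart was not counted.

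The median difference between HCC and liver ran from -0.03 (metallothioneins) to 0.17 (proximal list) by list, beside 0.11 over all chromosome 8 genes. All 36 measured genes of the proximal list had a higher mean in HCC, with a median difference of 0.17, and none passed the adjusted threshold. Of the liver and plasma protein genes, 32 of 37 had a higher mean in HCC (median 0.12), of the genes with a known part in cancer 36 of 37 (0.13), and of the cell division and replication genes 18 of 20 (0.08). For defensins, small antimicrobial peptides, it was 17 of 18 (0.12), for carboxylesterases 8 of 8 (0.06) and for metallothioneins 2 of 4 (-0.03). Over all chromosome 8 genes it was 966 of 1080. The differences of the defensin genes ran from -0.06 to 0.28, those of the carboxylesterases from 0.02 to 0.12 and those of the metallothioneins from -0.21 to 0.17. None of these genes had an adjusted p under 0.05.

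The genes named from the lists rest on 1 to 3 probes each. Insr, the insulin receptor and the first listed gene on the chromosome, read 0.27, -0.03, 0.09, 0.33 and 0.34 in HCC 1 to HCC 5 and -0.03, -0.05 and 0.05 in the livers, from 3 probes. Its difference was 0.21 (SE 0.13, limma adjusted p 0.701), and 4 tumours lay above all livers. Polb, the base excision repair polymerase, read 0.39, 0.10, -0.12, 0.07 and 0.45 against -0.10, -0.12 and -0.15, a difference of 0.30 (SE 0.15, adjusted p 0.633). Proz, which codes for a plasma protein of the clotting system, differed by 0.32 (SE 0.16, adjusted p 0.644). Nrg1, a ligand of ERBB receptors, differed by 0.25 and Nat1, an arylamine acetyltransferase, by 0.28, and neither passed (limma adjusted p 0.707 and 0.693). Cd209a, a lectin of dendritic cells, had the largest difference of the proximal list, 0.39, from 1 probe that read -0.46 in liver 1 and 0.12 and -0.02 in the others, with a limma adjusted p of 0.551, and without liver 1 the difference was 0.22. Lig4, the ligase of DNA end joining, differed by 0.18, Tubgcp3, of the gamma-tubulin complex, by 0.22, and Agpat5, of phospholipid synthesis, by 0.27. At the far end, Dpep1, a dipeptidase, differed by 0.12, Tubb3, a beta-tubulin, by 0.17, and Fanca by 0.22. HCC 3 was below 0 for the last 3, at -0.22, -0.24 and -0.40. For Fanca livers 1 to 3 were low as well, at -0.21, -0.35 and -0.41, and HCC 3 minus its own liver was -0.05. Several of the differences between HCC and liver rest on 1 tissue or on the dye orientation. Without HCC 5 that of Lig4 was 0.08, that of Dpep1 0.03 and that of Tubb3 0.09. Without HCC 3 those of Dpep1 and Tubb3 were 0.20 and 0.25, and without HCC 2 that of Lig4 was 0.27. Without HCC 1 that of Tubb3 was 0.11, and without liver 1 that of Nat1 was 0.17. With forward arrays alone those of Tubb3, Fanca and Nrg1 were 0.03, 0.06 and 0.14.

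No focal gain or loss of 0.3 or more from the chromosome median rested on several probes. Optimal partitioning gave 2, 1, 4, 2 and 4 segments for HCC 1 to HCC 5, and 1, 11 and 14 for livers 1 to 3. Livers 2 and 3 and HCC 5 had the lowest probe noise (0.0909, 0.0835 and 0.109, against 0.172 to 0.203 in the other tissues), and with seeded noise added to bring all to the same level the livers had 1, 3 and 1 segments and the HCC 2, 1, 4, 1 and 1. Of all segments, 6 held less than 50% of the chromosome and lay at least 0.3 from its median: 1 in HCC 3, 1 in HCC 5 and 2 each in livers 2 and 3. Each had 5 probes, and none of the 6 reached 0.3 once its most extreme probe was left out. Segments short of 0.3 included 1 of 12 probes in liver 2, from 32224247 to 32990741, with a mean of -0.17. Liver 3 had 1 of 12 probes from 125833417 to 125951650, with a mean of -0.21. Without the most extreme probe both means were -0.14. In HCC 3 the segment from 19290062 to 19446792, among defensin genes, had a mean of -0.84 and a mean of -0.14 without the unnamed probe at 19376328. In HCC 5 the segment from 109581591 to 109643144 had a mean of -0.13 and of 0.35 without the probe of Nip7, a ribosome assembly factor. The extreme probes of the 6 segments were the one at 19376328, that of Nip7 and an unnamed one at 84705245.

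At the probes at 19376328 and 84705245 and that of Nip7, all tissues of mouse 3151 lay above all tissues of the other mice. Tissues of 1 mouse could still differ. The probe at 84705245 read 1.56, 1.04 and 0.25 in HCC 1, HCC 2 and liver 1. It read -1.26 and -0.76 in HCC 3 and liver 2, and -0.36, -0.60 and -0.98 in HCC 4, HCC 5 and liver 3. The Nip7 probe read 0.90 and 0.48 in HCC 1 and HCC 2 and 0.68 in liver 1, all of mouse 3151. It read -2.61 in HCC 3 and -2.35 in liver 2 of mouse 3760, and -2.05, -2.06 and -2.23 in HCC 4, HCC 5 and liver 3 of mouse 4033. The 3 tissues of mouse 3151 were above 0 and all others below -2, whether tumour or liver. The unnamed probe at 19376328 split all 3 mice, with 1.24, 0.67 and 0.64 in mouse 3151, -3.64 and -3.44 in mouse 3760, and -0.31, -0.61 and -1.01 in mouse 4033. For Triml1, a tripartite motif family gene, the tissues of mouse 3151 read 1.11, 1.14 and 1.42 and the others -0.96 to -0.45. The forward and dye-swap arrays of these 8 probes differed by at most 0.81 in a tissue, less than the gap between mice for Nip7 (2.77) and for the unnamed probe at 19376328 (2.43).

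**Figure D5:**
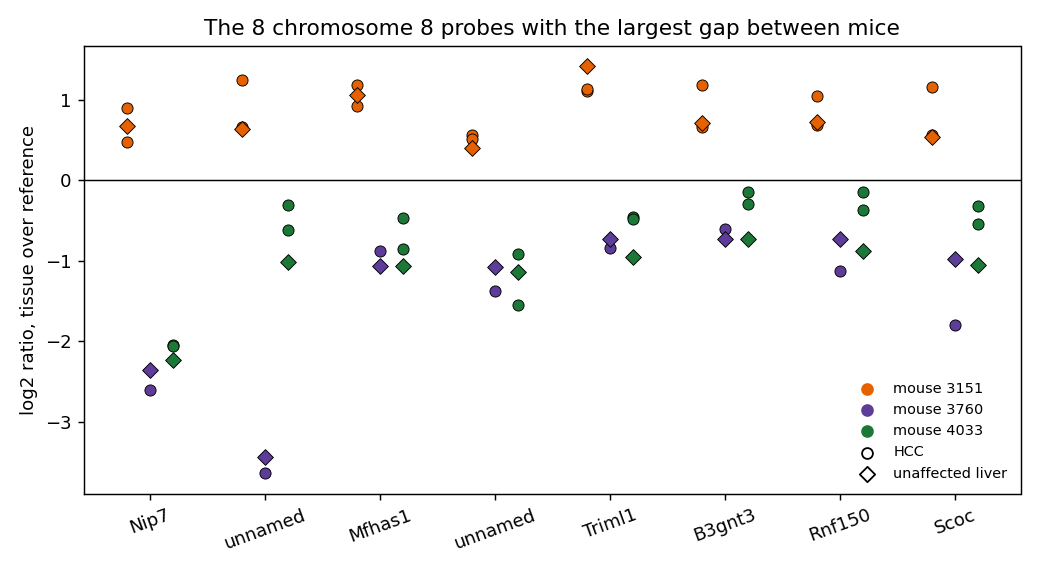
The log2 ratio of tissue over reference (vertical axis) of the 8 chromosome 8 probes with the widest gap between mice, with mice by colour, HCC as circles and unaffected liver as diamonds. For each probe the tissues of mouse 3151 lie above 0 and those of the other mice below it, tumours and liver together.

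To count them, each probe was taken relative to the median of the 21 probes around it, and a mouse was said to stand apart where all its tissues were at least 0.5 above or below all tissues of the other mice. Over the autosomes 284 of 40720 probes did so, 0.697%, and on chromosome 8 19 of 2151, 0.883%, which ranked 6 of 19 autosomes. The rule was chosen after the values were seen, and the count is given with no test. Mouse 3151 was the one apart for all 19, higher at 16 and lower at 3, and mouse 3760 was also apart, lower, at 1 of them. Over all autosomes mouse 3151 was higher at 106 and lower at 75. As the female, mouse 3151 had a male reference and the others a female one, so mouse and reference cannot be told apart here. None of the 19 had a neighbouring probe that was also apart. They had a median GC content of 36.7%, as did the other chromosome 8 probes, and none lay in the proximal part. Of the 19, 78.9% lay in named genes against 86.6% of all chromosome 8 probes. The probes of mouse 3151 apart in the lower direction were those of Wrn, a RecQ helicase gene, Fcho1, a clathrin adaptor gene, and Hmgb2l1. The Wrn probe read -0.62, -1.29 and -1.04 in mouse 3151 and -0.02 to 1.42 in the others, which pulled the 3-probe mean of the gene to -0.46 in HCC 2 and 0.77 in HCC 5. The mice and the references carry a mixed C57BL/6 and 129 strain label, and the part of sequence differences between them in these values was not tested.

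The most extreme probe of liver 1 was the Slc7a2 probe at 41992259, in a gene for a cationic amino acid transporter of liver. It read 2.72 in liver 1, from 4.82 with the forward and 0.61 with the swapped dyes. In the other tissues it read 0.04 to 0.48. The 2 arrays of liver 1 were thus 4.21 apart at this probe, and its mean there rests on 1 array.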

How the data were processed

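The authors scanned 4 slides on 2 days and processed them with Agilent Feature Extraction 9.1.3.1. Per the file headers, the intensity values are background-subtracted, detrended and dye-normalised within an array. The series matrix holds deposited log10 ratios, equal to the scanner files' own (red over green, negated for dye swaps) at 100.0% of non-control spots. From the intensity values the log2 ratio of tissue to reference was taken, negated for dye swaps. Control spots and 0 to 11 chromosome 8 spots per array marked as outliers were dropped, repeated spots were averaged (2195 spots, 2153 probes), and each array was centred on its autosomal median with no loess. Both orientations of a tissue were averaged to 1 replicate, and the number of tissues limits the precision.

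Autosomes, 5 Mb windows, gene names and probes were tested by limma 3.58.1 (R 4.3.3), two-sided, over all autosomes, adjusted by Benjamini-Hochberg and called under an adjusted p of 0.05. Steps and segments (penalty 3, at least 5 probes) used Python 3.11.15 and were checked on simulated data. The members and gene lists were chosen with earlier results of these data known. Named genes were the first, the last and the 2 of largest difference in each list other than the defensin, carboxylesterase and metallothionein families, which are given by range, 5 probes and 3 windows of smallest p, and genes in focal segments. Of 1080 names, 675 are current chromosome 8 symbols in GRCm38.p6 and 131 older ones. HCC and liver of 1 mouse are paired by the animal, and the deviations of an HCC and its own liver from their groups had r of 0.126 to 0.288 across probes. Alternatives changed the background correction, centring, filters, windows, cuts and penalty, and left out each tissue.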

Additional observations from a re-analysis of the deposited data

Results flagged for a closer look

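The mean beyond 75 Mb minus the mean before it was -0.2661 in HCC 3, while the other 4 HCC lay between -0.0325 and -0.0138. The gap from HCC 3 to the next tumour was 0.926 of the range of the 5 HCC, above the critical value of 0.71 for 5 values. The boundary was placed where HCC 3 itself had its step, so HCC 3 had to stand apart here and this is a description, not a test. In all, 20 levels, differences and named genes were examined in this way, 1 passed, and chance passes about 1 of 20.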

How the results depend on the processing

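The chromosome 8 difference between HCC and liver kept its sign and stayed short of the threshold in all 18 alternatives refitted with limma, from 0.0358 without HCC 5 to 0.166 without HCC 3, with adjusted p from 0.358 to 0.933. With mouse as a replicate block it was 0.0849 and with scan day as a block 0.113. The windows, genes and probes called on chromosome 8 stayed at 0 in every alternative run. Over all autosomes, scan day as a block called 18 windows in place of 4. The events count of 1 became 0 with centring on the mode and at a threshold of 0.5, and was 0 to 1 when each HCC was left out, with 0 without HCC 5. The proximal-minus-rest difference ran from 0.0383 to 0.0846 when each tissue was left out and was 0.0756 with the replicate block. The HCC had 13 segments on chromosome 8, 8 with forward arrays alone and 9 to 12 when each HCC was left out. The step of HCC 3 ran from -0.272 to -0.259. A gap of 0.3 gave 39 probes that set a mouse apart and a gap of 1 gave 6, in place of 19, and the other settings 15 to 20. In all 204 refits the 12 named list genes had the sign of the main value and did not pass, though the size moved by over 1.5 times for some. GC correction, equal noise, the step and the probe gap were added after seeing the data. The cause of the changed counts was not tested. Signal over background was at least 3.79, and the probe noise limits steps of few probes.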
